A study of Homo sapiens with 9 samples.

Results

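The FOS, JUN and EGR1 family comprised 10 early response genes, FOS, FOSB, FOSL1, FOSL2, JUN, JUNB, JUND, EGR1, IER2 and IER3. They were picked by gene symbol from the 33861 genes of the deposited table. All 10 had reads in each of the 9 RNA-seq libraries. The libraries came from HCT116, a human colorectal carcinoma cell line, grown in 10% serum, and formed 3 groups of 3. Cells labelled NC served as the controls. Activin cells had received 100 ng/mL activin A for 5 days. Activin+HGF cells had received the same activin treatment and then 20 ng/mL HGF for 5 further days. A single line was used, and nothing in the sources says that the replicates were separate cultures, so p-values measure the spread between these libraries, which may be technical. Culture time of the NC cells is not stated, so activin and time in culture cannot be told apart in the comparisons with NC. The Activin+HGF cells were 5 days older than the Activin cells, and whether activin was kept on during those days is not stated. HGF, time in culture and a possible removal of activin therefore cannot be told apart. The comparison of Activin with NC is called the activin step here, and that of Activin+HGF with Activin the HGF step.

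FOS and JUN proteins pair to form the transcription factor AP-1, which binds short palindromic DNA sites. FOS proteins need a JUN partner to bind, whereas JUN proteins can also pair with each other. EGR1 is a zinc finger transcription factor, and IER2 and IER3 are small immediate early proteins. Growth factors such as HGF, acting through its receptor MET and the ERK kinases, are known to switch many early response genes on within minutes. Serum response factor (SRF) and CREB act at some of their promoters, and in most cells the transcripts soon fall again. FOSL1 and JUN are known for roles in the invasion of carcinoma cells. In these bulk libraries, a change in the share of expressing cells and a change in transcript per cell cannot be told apart.

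JUNB, IER2, JUND and FOSB lie on chromosome 19 in the deposited coordinates, at chr19:12791486-12793315, chr19:13150411-13154911, chr19:18279694-18281622 and chr19:45467995-45475179 in this order. JUN lies at chr1:58780791-58784047, FOSL2 at chr2:28392448-28417312, EGR1 at chr5:138465479-138469303, IER3 at chr6:30743199-30744548, FOSL1 at chr11:65892049-65900419 and FOS at chr14:75278826-75282230. The build is not named in the sources used here, and 19767 of the 32930 genes shared with GENCODE 29 had coordinates identical to that GRCh38 annotation. In GENCODE 29, the longest coding transcripts of JUN, JUNB, JUND and IER2 have a single exon, as had 4.04% of the 17349 protein-coding genes with a 3′ UTR of at least 100 bases. FOSB, FOSL2, IER2 and IER3 overlap other annotated genes, and the strand used in counting is not stated, so their counts may include reads of those neighbours.

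Promoters were read from RefSeq (GRCh38.p14) for 8 of the 10 genes. No promoter sequence was at hand for FOSL1 and IER3, so their promoters were not searched. The 250 bases before each start were searched for 6 motifs, on both strands except for the TATA box. The TGACGT core of the CREB site was present in FOS, FOSB, FOSL2, JUND and EGR1, that is in 5 of 8 promoters, against 7.42% of 27305 promoters of the same length. The 150 bases before the RefSeq start of FOSL2 (chr2:28392708-28392857) lie inside the gene as deposited, so its match depends on the start used. The CArG box, the site of SRF, was found in EGR1, and 1.14% of all promoters held it. Sites further upstream than 250 bases were not searched, so the other genes may hold a CArG box there. A TATAAA box was found in FOS, FOSB and JUNB, against 7.17% of all promoters. The full site TGACGTCA was present in JUND (1.77% of all), where it overlaps the TGACGT core, and GCGNGGGCG, a site of EGR proteins, in EGR1 (8.25% of all). TGANTCA, the classical AP-1 site, was in 0 of the 8 windows and in 6.60% of all promoters. The sequences below show the 150 bases before the start, 5′ to 3′ on the strand of the gene, with the matched motifs in capitals. EGR1, FOS, FOSB and JUND are shown for their motifs, and JUN because it had the largest change of the 10 genes and no match in these letters. They lie at chr5:138465329-138465478 on the plus strand (EGR1), chr14:75278678-75278827 on the plus strand (FOS), chr19:45467846-45467995 on the plus strand (FOSB), chr19:18281623-18281772 on the minus strand (JUND) and chr1:58784048-58784197 on the minus strand (JUN).
EGR1: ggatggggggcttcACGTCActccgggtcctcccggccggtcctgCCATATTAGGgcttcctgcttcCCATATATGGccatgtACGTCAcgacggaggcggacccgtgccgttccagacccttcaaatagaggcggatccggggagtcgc
FOS: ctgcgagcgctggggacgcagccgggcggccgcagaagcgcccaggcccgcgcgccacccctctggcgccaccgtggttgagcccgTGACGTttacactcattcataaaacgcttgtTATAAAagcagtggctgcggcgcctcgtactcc
FOSB: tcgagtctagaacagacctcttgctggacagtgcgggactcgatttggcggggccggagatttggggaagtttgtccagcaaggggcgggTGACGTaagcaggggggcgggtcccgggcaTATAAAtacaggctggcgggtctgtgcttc
JUND: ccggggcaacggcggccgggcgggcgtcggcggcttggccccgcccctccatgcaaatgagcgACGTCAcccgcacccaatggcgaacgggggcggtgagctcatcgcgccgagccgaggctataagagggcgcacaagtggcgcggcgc
JUN: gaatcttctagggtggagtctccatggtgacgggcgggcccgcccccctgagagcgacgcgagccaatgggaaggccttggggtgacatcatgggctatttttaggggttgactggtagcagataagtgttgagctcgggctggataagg
In EGR1, the CArG boxes start 105 and 83 bases before the transcription start, and TGACGT cores read on the other strand (ACGTCA) start 136 and 67 bases before it. The full site of JUND, further upstream, lies outside the bases shown. In FOS and FOSB the TGACGT core starts 64 and 60 bases before the start, and the TATAAA box 33 and 30 bases before it. A match describes the letters only, variants of the 6 motifs were not searched, and binding was not measured.

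The libraries held 57453977 to 77016167 counts. Epithelial keratins, EPCAM (77.2 to 133 FPKM) and CDH1 were present in every library, whereas the intestinal genes VIL1 and LGALS4 stayed at or below 0.28 FPKM and the intestinal factor CDX2 stood at 1.57 to 5.41. The leukocyte list summed to 0.69 to 1.47 FPKM in NC, 4.96 to 9.37 in Activin and 6.05 to 7.63 in Activin+HGF, carried by CD68, while PTPRC stayed at 0 to 0.02. The fibroblast list, carried by COL1A1, summed to 2.62 to 2.69 FPKM in NC, 4.58 to 6.04 in Activin and 2.88 to 3.65 in Activin+HGF. Mitochondrial genes held 18.0 to 20.1% of the counts in NC, 15.1 to 17.2% in Activin and 15.2 to 15.7% in Activin+HGF. Activin replicate 2 and Activin+HGF replicate 1 stood apart from the other libraries of their groups: each held the highest level of 9 of the 10 genes within its group. Without both of them, 9, 4 and 9 of the 10 genes were still called in the 3 comparisons. The part of these library differences in the results was not tested.

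Nearly the whole family stood higher after activin. Of the 10 genes, 9 were called higher in Activin than in NC and 0 lower, where called means a Benjamini-Hochberg adjusted p under 0.05 in edgeR's quasi-likelihood test over 20988 genes and at least a 2-fold difference. Among all genes tested, 11.4% were called and 6.78% were called higher. The largest increases were those of JUN, EGR1, JUNB and IER2. In all 10 genes the lowest Activin library lay above the highest NC library, which was the case in 20.9% of all genes. Levels below are counts scaled to library size (CPM) of the TMM-scaled library, given for replicates 1, 2 and 3 in turn.

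Among the JUN genes, JUN itself, the founding member of its family, stood at 19.0, 19.2 and 17.5 CPM in NC, at 127, 191 and 133 in Activin and at 789, 355 and 341 in Activin+HGF. The 3 groups did not overlap, and Activin+HGF replicate 1 lay far above its other two replicates. JUN rose by a log2 fold change of 3.02 (SE 0.33, adjusted p = 0.000308) in the activin step, 8.09-fold, and by 1.72 (SE 0.32, adjusted p = 0.0103) in the HGF step. Over both steps the level was 26.6-fold higher, the largest difference of the 10 genes. JUNB, a weaker activator that can oppose JUN on some promoters, stood at 58.9, 80.8 and 65.0 CPM in NC, at 355, 586 and 346 in Activin and at 1222, 729.5 and 724 in Activin+HGF. It too had no overlap between the groups. Its log2 fold change was 2.65 (SE 0.29, adjusted p = 0.000288) in the activin step and 1.06 (SE 0.27, adjusted p = 0.0325) in the HGF step. JUND, the JUN gene usually expressed at a steady level, stood at 73.0, 104 and 87.7 CPM in NC, at 188, 311 and 196 in Activin and at 558, 483 and 464 in Activin+HGF. All Activin+HGF libraries exceeded all Activin libraries, which in turn exceeded the controls. JUND rose by 1.40 (SE 0.23, adjusted p = 0.00237) and then by 1.11 (SE 0.22, adjusted p = 0.0135) on the log2 scale.

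Among the FOS genes, FOS stood at 6.93, 5.09 and 7.62 CPM in NC, at 16.6, 24.8 and 15.0 in Activin and at 139, 79.7 and 49.9 in Activin+HGF. It was the gene with the largest increase in the HGF step, with a log2 fold change of 2.25 (SE 0.36, adjusted p = 0.00676), a 4.77-fold difference, after 1.52 (SE 0.36, adjusted p = 0.0149) in the activin step. Without NC replicate 2, the activin step of FOS no longer passed (adjusted p = 0.0558). The Activin+HGF libraries spread widely, with a mean of 89.6 ± 45.4 CPM (SD, n = 3), yet the lowest of them was above the highest Activin library. FOSL1, which encodes FRA-1 and lacks the activation domain of FOS, stood at 31.0, 39.6 and 32.7 CPM in NC, at 137, 231 and 130 in Activin and at 380, 245 and 227 in Activin+HGF. Its activin step was 2.27 on the log2 scale (SE 0.28, adjusted p = 0.000549). Its HGF step was 0.77 (SE 0.27, adjusted p = 0.0831) and did not pass, and Activin replicate 2 lay above the lowest Activin+HGF library. It passed in 3 of 16 alternative analyses, among them the one without Activin replicate 2 (adjusted p = 0.0135). FOSB was the lowest of the family, at 3.04 to 3.69 CPM in NC, 7.08 to 19.4 in Activin and 12.9 to 42.2 in Activin+HGF. It was called in the activin step (log2 fold change 1.88, SE 0.48, adjusted p = 0.0219), a call that was lost without any 1 of the NC libraries or without Activin replicate 2 (adjusted p of 0.0613 to 0.0825).

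FOSL2, which encodes FRA-2, was the exception in the family. It stood at 60.9, 66.8 and 61.3 CPM in NC, at 84.1, 115 and 83.9 in Activin and at 103, 96.1 and 88.3 in Activin+HGF. The treated libraries lay above the controls, but the activin step was a log2 fold change of 0.58 (SE 0.17, adjusted p = 0.0403), below 2-fold, and it did not pass with the replicate number as a block (adjusted p = 0.0514) and passed in 11 of 16 alternative analyses. In the HGF step FOSL2 differed by 0.02 with a 95% interval of -0.35 to 0.40 (adjusted p = 0.943), so a change of 2-fold in either direction lies outside that interval.

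EGR1 stood at 54.5, 94.1 and 65.3 CPM in NC, at 499, 734 and 461 in Activin and at 1220.5, 717 and 713 in Activin+HGF. All treated libraries were above all controls, and the Activin and Activin+HGF libraries overlapped. EGR1 rose by 2.99 on the log2 scale (SE 0.31, adjusted p = 0.000211) in the activin step. In the HGF step its log2 fold change of 0.65 (SE 0.29, adjusted p = 0.157) did not pass. IER2, a nuclear early response protein, stood at 41.8, 14.0 and 42.8 CPM in NC, at 294, 173 and 122 in Activin and at 209, 182 and 237 in Activin+HGF. NC replicate 2 was the low library in its group. IER2 rose by 2.58 (SE 0.43, adjusted p = 0.00286) in the activin step and differed by 0.09 in the HGF step (95% interval -0.81 to 0.99, adjusted p = 0.909), an interval that stays below 2-fold. IER3, which is known to modulate cell survival, was already abundant at 424, 410.1 and 449.9 CPM in NC and reached 1084, 1649 and 1096 in Activin and 2282, 2024 and 2139.7 in Activin+HGF. The 3 groups were fully separate. Its log2 fold change was 1.58 (SE 0.19, adjusted p = 0.000424) in the activin step and 0.75 (SE 0.18, adjusted p = 0.0263) in the HGF step, the latter below 2-fold and past the threshold of adjusted p in 8 of 16 alternative analyses.

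**Figure D1:**
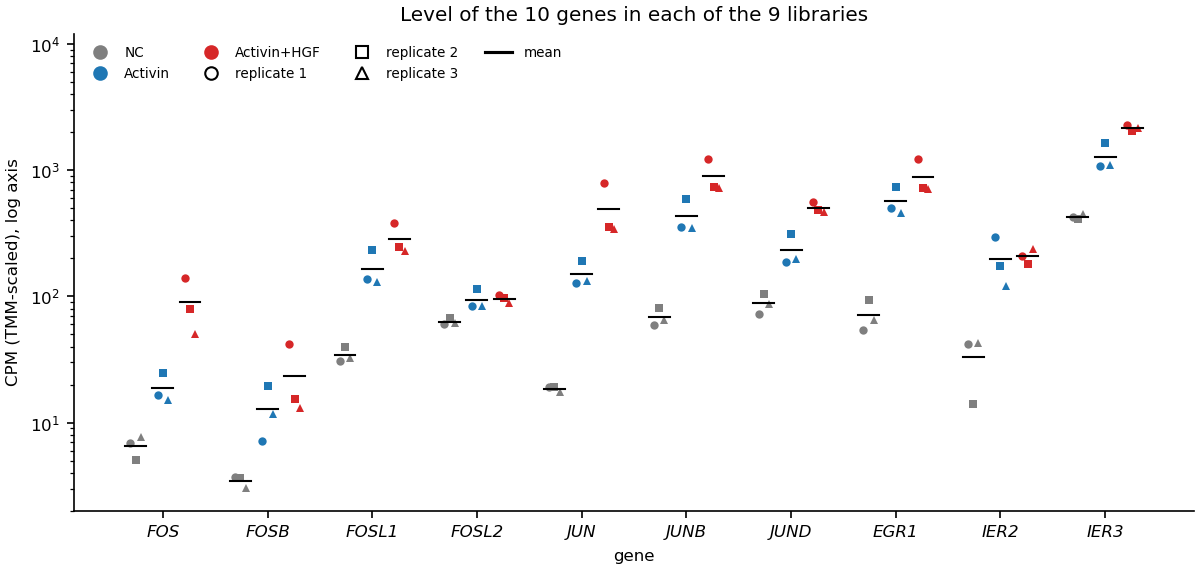
Level of each gene in each library in CPM of the TMM-scaled library, on a log axis. Colours mark the 3 groups, symbols the replicate numbers and black bars the group means. In every gene the lowest Activin library lay above the highest NC library, and Activin+HGF replicate 1 was the highest of its group in 9 of 10 genes.

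After HGF, 4 of the 10 genes, FOS, JUN, JUND and JUNB, were called higher than in Activin and 0 lower, against 8.09% of all genes called and 3.87% called higher. IER3 passed on its adjusted p but not on its size. All calls of the HGF step were thus JUN genes and FOS, whereas FOSB, FOSL1, FOSL2, EGR1 and IER2 did not pass. Groups did not overlap in FOS, JUN, JUNB, JUND and IER3, and this held upward for 17.2% of all genes. The call of FOS held in all 16 alternative analyses and that of JUN in 15 of 16, being lost without Activin replicate 1 (JUN adjusted p = 0.0556). The calls of JUND and JUNB held in 10 and 9 of 16. Both were lost with library totals as the scaling, with only these 2 groups in the fit, on FPKM values and without Activin replicate 1 or 3, and that of JUNB also without Activin+HGF replicate 1.

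The HGF step was set against the activin step directly, as the difference of the log2 fold changes, a contrast added after the data were seen. It was negative for EGR1 at -2.34 (95% interval -3.39 to -1.28, adjusted p = 0.0153) and for IER2 at -2.49 (-4.00 to -0.97, adjusted p = 0.0480), whereas 4.66% of all genes passed with a negative difference. For IER2 the call was lost without any 1 of 7 of the 9 libraries, with -1.76 and adjusted p = 0.208 without Activin replicate 1, and with the replicate block (adjusted p = 0.0505). JUNB (-1.60, adjusted p = 0.0545) and FOSL1 (-1.49, adjusted p = 0.0653) did not pass, but passed in 7 and 6 of 18 alternative analyses, among them DESeq2 (adjusted p = 0.0161 and 0.0246). With library totals as the scaling, 7 of the 10 genes passed with a negative difference. FOS alone had a positive difference, 0.73, with a wide interval of -0.62 to 2.09 (adjusted p = 0.501). The steps share the Activin libraries, which enter this contrast with double weight and with opposite sign.

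Against NC, Activin+HGF cells had 9 of the 10 genes called higher and 0 lower, where 21.5% of all genes were called and 11.3% called higher. Log2 fold changes were 4.74 for JUN, 3.77 for FOS, 3.71 for JUNB, 3.63 for EGR1 and 3.04 for FOSL1. FOSB (2.77), IER2 (2.67), JUND (2.51) and IER3 (2.33) followed, with adjusted p between 2.65e-05 and 0.00231 over the 9 genes. FOSL2 stood 1.52-fold higher (log2 0.61, adjusted p = 0.0222), and its adjusted p was under 0.05 in 9 of 16 alternative analyses. All 10 genes lacked overlap between these groups, an upward separation seen in 25.7% of all genes. Both comparisons with NC share the control libraries, and the comparisons of each step share the Activin libraries.

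**Figure D2:**
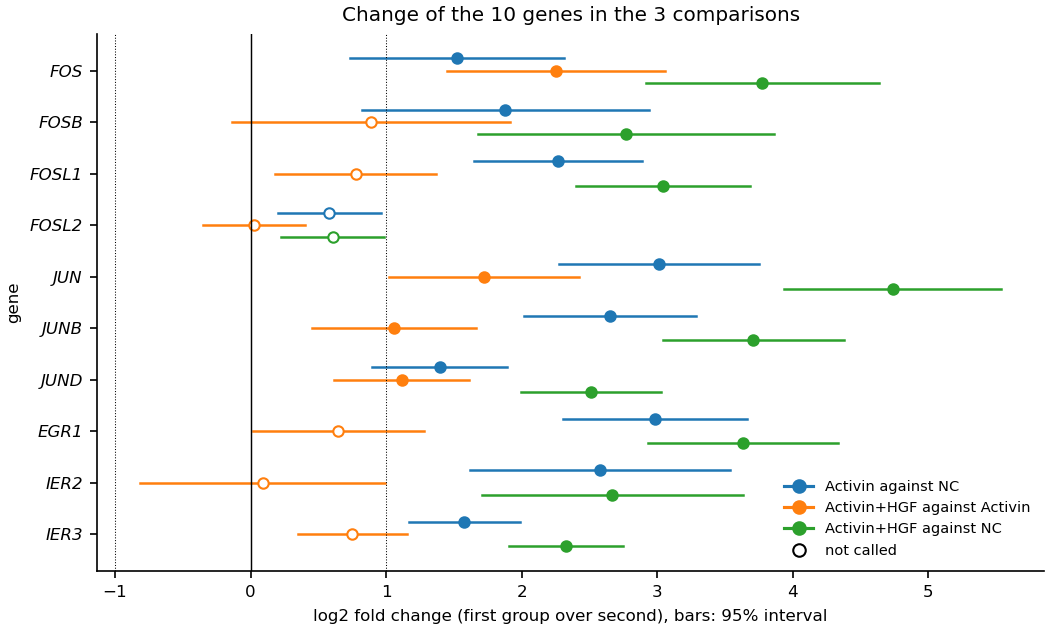
Log2 fold change of each gene in the 3 comparisons, with 95% intervals from edgeR as bars. Filled points were called and open points were not, and dotted lines mark 2-fold. The HGF step lies near 0 for FOSL2 (0.02) and IER2 (0.09) and reaches 2.25 for FOS.

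Scaling bears on the HGF step. With library totals in place of TMM factors (0.783 to 0.926 in Activin+HGF), the median of all genes moved from -0.04 to -0.38 on the log2 scale. FOS and JUN then stood at 1.89 and 1.35 and stayed called, and FOSL2 and IER2 turned to -0.31 and -0.27, both above that shifted median. The direction of FOSL2 and IER2 in the HGF step was therefore not settled, and no direction is given for them.

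FPKM, which is per length, allowed levels of different genes to be set side by side. It carries no TMM factor, so its differences between groups depend on the scaling described above. IER3 was the highest of the 10 in each group, with 285 ± 16.4 FPKM in NC, 886 ± 138 in Activin and 1160.1 ± 48.4 in Activin+HGF (SD, n = 3), and FOSB was the lowest, at 0.557 ± 0.061, 2.10 ± 0.86 and 2.96 ± 1.75. The order between them differed from group to group. In NC, JUND (40.9 ± 6.17) came next to IER3 and was followed by JUNB (33.4 ± 4.77), whose libraries overlapped those of JUND. EGR1 (20.3 ± 5.37) and FOSL1 (16.3 ± 1.79) overlapped too, as did IER2 (9.64 ± 4.90) and FOSL2 (7.89 ± 0.27). JUN (5.12 ± 0.27) and FOS (1.84 ± 0.39) stood below them. In Activin, JUNB (219 ± 47.9) and EGR1 (169 ± 28.3) overlapped and stood above JUND (112 ± 22.2), and JUND, FOSL1 (82.0 ± 19.9), IER2 (61.1 ± 30.6) and JUN (43.3 ± 6.06) each overlapped the next. FOSL2 (12.4 ± 1.17) and FOS (5.51 ± 1.04) were again near the bottom. In Activin+HGF, JUNB (349.6 ± 76.3) led, EGR1 (202 ± 46.0) overlapped JUND (189 ± 6.38), and FOSL1 (108 ± 21.2) overlapped JUN (108 ± 44.3). FOS (20.0 ± 8.37) then exceeded FOSL2 (9.75 ± 0.61) in every library, an order opposite to that in NC and in Activin.

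The makeup of the FOS and JUN families by FPKM differed between the groups. Within the JUN family, JUND made up 49.9, 51.8 and 52.6% in NC and 29.5, 29.8 and 30.7% in Activin, while JUNB made up 42.4, 42.5 and 41.1% and then 58.7, 59.3 and 57.0%. JUN was the smallest part, at 6.53 ± 1.03% in NC, 11.7 ± 0.74% in Activin and 16.2 ± 3.44% in Activin+HGF (SD, n = 3). JUND was the most abundant JUN transcript in every NC library and JUNB in every treated library. Within the FOS family, FOSL1 was the most abundant transcript throughout, with 59.2, 64.4 and 60.2% in NC, 80.0, 81.8 and 78.8% in Activin and 75.4, 75.9 and 79.9% in Activin+HGF. FOSL2 held 29.7 ± 0.98% in NC, 12.4 ± 1.45% in Activin and 7.15 ± 1.52% in Activin+HGF. FOS held 6.97 ± 1.83%, 5.43 ± 0.27% and 13.8 ± 3.07%, and FOSB held 2.09 ± 0.26%, 2.03 ± 0.56% and 1.996 ± 0.73%. The 15 share comparisons that differed without overlap reached an exact permutation p of 0.1, the smallest that 3 libraries against 3 allow (two-sided, adjusted p = 0.14 over 21 tests), so none could pass. The summed FPKM of the FOS family was 26.6 ± 1.67 in NC, 102 ± 22.8 in Activin and 141 ± 31.0 in Activin+HGF. Its sums overlapped in the HGF step, with Activin replicate 2 at 128.1 and Activin+HGF replicate 3 at 114.4 (exact permutation p = 0.2). The sum of the JUN family was 79.4 ± 10.8, 374 ± 76.0 and 647 ± 121.

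**Figure D3:**
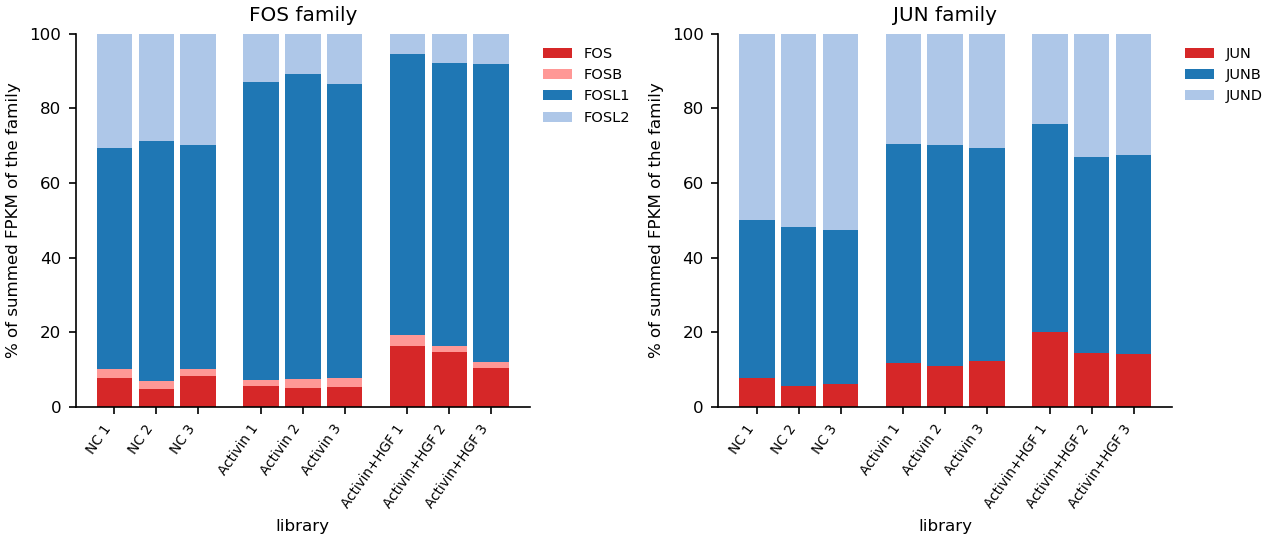
Share of each gene in the summed FPKM of the FOS family (left) and the JUN family (right), 1 stacked bar per library. FOSL2 and JUND take smaller shares in all treated libraries than in NC, and FOS takes its largest shares, 10.4 to 16.3%, in Activin+HGF.

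The genes of the family did not all follow the same pattern. Likeness was taken as the mean absolute difference between centred log2(CPM + 1) values over the 9 libraries. The closest pairs were JUND with IER3 (0.190), JUNB with EGR1 (0.193) and JUNB with FOSL1 (0.242), and FOSL2 lay farthest from the others, at 0.604 from IER3 and 1.40 from JUN. Of the 20987 other genes tested, CDKN1C, a cyclin-dependent kinase inhibitor, was nearest to JUN (0.141), before KRTAP2-3 (0.239) and KLF2 (0.244). CDKN1C stood at 5.33 to 6.14 CPM in NC, 26.0 to 57.7 in Activin and 101 to 239 in Activin+HGF. KRTAP2-3 belongs to a family of near-identical keratin-associated genes, so its reads are uncertain. SEMA7A, a semaphorin, was nearest to JUNB (0.128), followed by ANGPTL4 (0.149) and LAMB3 (0.167). EGR1 was nearest to ANGPTL4 (0.115), a secreted lipase inhibitor, then LAMB3 (0.128), a laminin chain, and NDRG1 (0.151). These likenesses are descriptions over 9 libraries that share their groups, and the median difference of all genes was 1.68 for JUN, 1.41 for JUNB and 1.47 for EGR1.

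Of 30 other early genes, 18 were called higher and 0 lower in the activin step, 11 and 0 in the HGF step, and 25 and 0 over both steps, with median log2 fold changes of 1.81, 0.76 and 2.45 beside 0.02, -0.04 and -0.03 for all genes tested. Among all genes, 6.78, 3.87 and 11.3% were called higher. All 6 lists were chosen with earlier results of these data known, so their counts are descriptions only. In the HGF step 19 of the 30 were not called, and PPP1R15A, a phosphatase subunit named after its values were seen, stood lower by -0.83 (adjusted p = 0.0445), below 2-fold. In the activin step the largest increases were those of ATF3 (log2 fold change 3.79), a stress-induced bZIP factor, EGR3 (3.53) and KLF2 (3.39). In the HGF step they were those of DUSP1 (2.10), a phosphatase of MAP kinases, CCN1 (1.99), a matrix protein, and GADD45B (1.89), with adjusted p of 0.0275, 0.0497 and 0.0312. In Activin+HGF, DUSP1 ranged from 87.6 to 379 CPM CCN1 from 55.1 to 309 and GADD45B from 43.5 to 173, so these 3 increases were uneven across replicates. Without Activin replicate 1 or 3, the genes called in the HGF step over all 6 lists numbered 3 and 5 in place of 19. Over both steps, DUSP1 (4.57), KLF2 (4.51) and ATF3 (4.14) led.

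Of the AP-1 dimer partners, 11 of 13 could be tested, and 5 were called higher in the activin step, 1 in the HGF step and 6 over both steps, with 0 lower (medians 1.19, 0.07 and 1.87). The called partners included ATF3 and the small MAF protein MAFF, which rose by 2.31 and then by 2.03 to 157 to 630.1 CPM. MAFK, another small MAF, was 3.18 higher over both steps. Of 5 EGR relatives and corepressors, EGR2, EGR3 and EGR4 were called in the activin step (log2 fold changes 2.76, 3.53 and 3.26) and 0 in the HGF step, where the median was 0.46. EGR2, EGR3, EGR4 and ATF3 were already counted among the other early genes, so their calls are not separate results. The corepressors NAB1 and NAB2 did not pass in any comparison. EGR4 was low, at 0.80 to 2.69 CPM in Activin. Of all genes tested, 6.78% were called higher in the activin step, 3.87% in the HGF step and 11.3% over both steps. The HGF-step counts of 1 and 0 do not set these lists apart from that share.

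Of 21 kinases and SRF factors upstream of these genes, 1 transcript was called higher and 1 lower in the activin step, 0 in the HGF step, and 3 higher and 1 lower over both steps, with medians of 0.20, 0.07 and 0.12. Among all genes, 11.4, 8.09 and 21.5% were called in these comparisons, so the share called was near the background in the activin step and over both steps. At an adjusted p under 0.05 without a fold limit, 3 were higher and 3 lower in the activin step and 1 was higher in the HGF step. ELK3, an SRF partner, was higher by 1.22 (adjusted p = 0.0430) in the activin step, and MRTFB, an actin-regulated SRF coactivator, was lower by -1.53 (adjusted p = 0.0492). ELK1, another partner of SRF that is activated by ERK, was 1.29 higher over both steps. MAP2K1, a kinase of the ERK pathway named after its values were seen, was also 1.29 higher over both steps (adjusted p = 0.000610). It was the gene higher in the HGF step, by 0.73 (adjusted p = 0.0259), below 2-fold. Over both steps, 7 of the list were higher and 3 lower at an adjusted p under 0.05 without a fold limit. Kinase activity was not measured by RNA-seq.

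Of 26 known AP-1 targets, 22 could be tested, and 12 were called higher and 0 lower in the activin step, 4 higher and 2 lower in the HGF step, and 14 higher and 1 lower over both steps, with medians of 1.27, 0.37 and 1.83. The share called higher among all genes was 6.78, 3.87 and 11.3%, and 16 of the 22 targets were not called in the HGF step. CXCL8, the neutrophil chemokine, rose from 0.36 to 0.55 CPM in NC to 59.9 to 63.6 in Activin (log2 fold change 7.07) and then fell by 1.73 on the log2 scale to 12.1 to 27.2 in Activin+HGF. The collagenase MMP1 rose in both steps, by 3.50 and 2.91, to 4.54 to 8.82 CPM, and the stromelysin MMP10 rose by 3.07 in the HGF step. Both were low, so the sizes are uncertain: MMP1 had 3 to 8 counts per library in NC and 11 to 88 in Activin. MMP10 had 8 to 130 counts in NC and 30 to 48 in Activin. SPRR1B, a cornified envelope gene, had 0 counts in all NC libraries and was at least 26.5-fold higher in Activin and at least 10.2-fold higher in Activin+HGF, against a floor of 3 counts per NC library. EREG, an EGF receptor ligand, was the other gene called lower in the HGF step (-1.57), and VIM, the intermediate filament vimentin, the gene called lower over both steps (-2.66), both named after their values were seen. Of 11 known EGR1 targets, 10 could be tested, and 5 were called higher in the activin step, 1 in the HGF step and 5 over both steps, with 0 lower (medians 0.92, 0.13 and 1.15). Among these growth factor and matrix genes, PDGFB rose by 2.64, PDGFA by 1.71 and THBS1 by 1.51 in the activin step. TGFB1 was called in both steps, rising by 1.08 in the activin step and by 1.07 in the HGF step. PDGFB was then lower by -0.98 (adjusted p = 0.0410) in the HGF step, just below 2-fold and so not called.

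**Figure D4:**
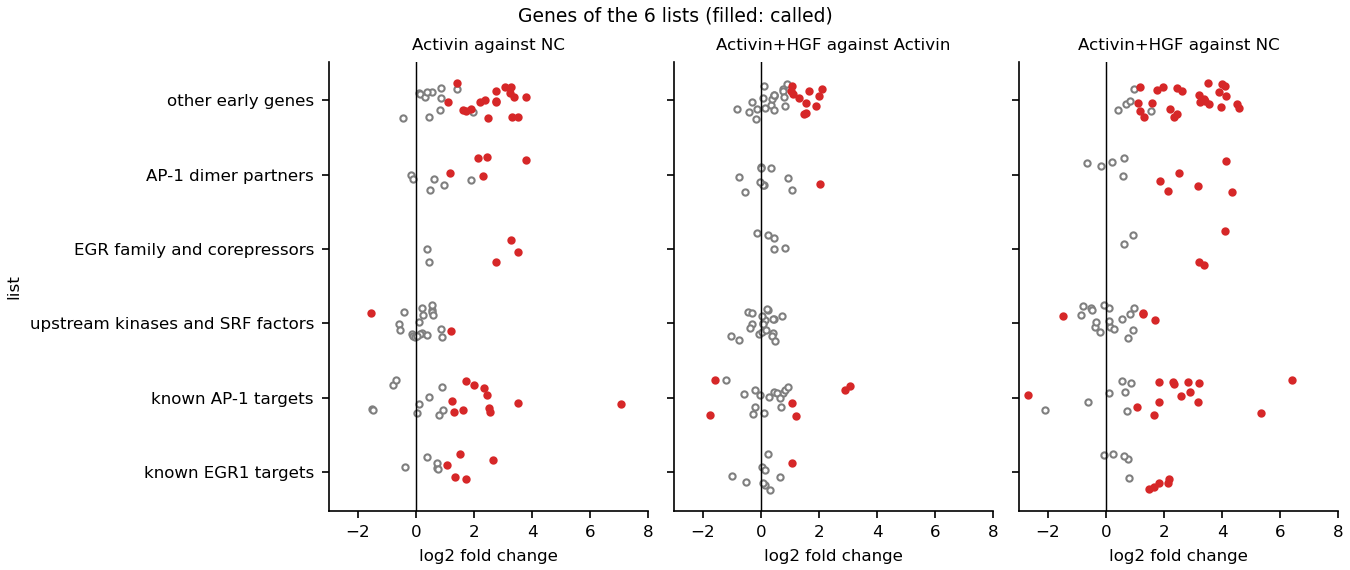
Log2 fold change of each tested gene of 6 lists in the 3 comparisons, filled where called. SPRR1B is not drawn, since it had 0 counts in NC. The upstream kinases and SRF factors (medians 0.20, 0.07 and 0.12) gather around 0, and the other early genes (medians 1.81, 0.76 and 2.45) lie mostly above it.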

How the data were processed

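Counts and FPKM per gene were deposited by the authors for 33861 genes in 9 libraries. Counts are not normalized, and the authors scaled FPKM to library size and gene length. The submitters' processing notes name cutadapt 1.9, HISAT2 2.0.4 and StringTie 1.3.4d, without roles, and the genome build and strand setting are not given in the sources used here. Multiples of 4 made up 35.0% of the counts between 1 and 40 (25% would be even), so 1 count is not always 1 fragment.

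The members and lists were chosen with earlier results of these data known. A gene on several lists counted under each list, and once in totals over all 6 lists. Counts were analysed with edgeR 4.0.16 (filterByExpr, TMM, glmQLFit, glmQLFTest) in R 4.3.3. The 9 libraries entered 1 model with group means and Benjamini-Hochberg adjustment over 20988 genes. Genes with adjusted p under 0.05 and at least 2-fold difference were called. Standard errors were taken from the fold change and F statistic and are approximate. On simulated counts, 82.5% of 200 genes changed by 2 on the log2 scale were called, and 6.78% of the calls were false. Smaller changes were not simulated. All 10 members were named, and of each list up to 3 called genes with the largest change per comparison, and the 3 nearest genes for each of the 3 members with the widest range of group means. Not every gene that meets this rule is reported here. Depth ran from 57453977 to 77016167 counts, and precision was limited by 3 libraries per group. Family shares were compared by exact permutation tests (scipy 1.17.1). Motifs and exons were read from RefSeq promoters and GENCODE 29. Alternatives used DESeq2 1.42.0, limma 3.58.1 on log2(FPKM + 0.1) and log2(FPKM + 1), other scalings, filters and thresholds, 2 groups alone, the replicate block and left-out libraries.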

Additional observations from a re-analysis of the deposited data

How the results depend on the processing

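The number of the 10 genes called in the activin step and over both steps stayed within 1.5 times the main 9 under every alternative run. In the HGF step it was 4, and it was 2 with library totals, 2 with only the 2 groups compared, 2 with limma on either FPKM scale and 1 at an adjusted p under 0.01. The listed genes called in that step, 19 in the main analysis, numbered 8 with only the 2 groups, 12 and 11 with limma on log2(FPKM + 0.1) and log2(FPKM + 1), and 3 at an adjusted p under 0.01. With 1 library left out, the counts of members ranged from 7 to 9 in the activin step, from 1 to 5 in the HGF step (1 without Activin replicate 1, 2 without Activin replicate 3) and from 9 to 9 over both steps. Those of listed genes ranged from 31 to 40, 3 to 19 and 51 to 55, with 3 and 5 in the HGF step without Activin replicates 1 and 3. Same-numbered replicates did not deviate together (correlations -0.12 to 0.24), so the numbers were not taken as pairs. With the replicate block, 9, 4 and 9 members and 40, 14 and 53 listed genes were called.

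In the HGF step the log2 fold change of FOSL2 was -0.31 with library totals, -0.018 with the 2 groups alone, -0.34 and -0.31 with limma, and -0.13 to 0.19 with 1 library left out (negative without Activin replicates 1 or 3 or Activin+HGF replicate 1). That of IER2 was -0.27 with library totals, -0.20 and -0.20 with limma, and -0.25 to 0.44 with 1 library left out (negative without Activin replicate 3 or Activin+HGF replicate 3). The difference of steps of JUND was -0.63 to 0.26 with 1 library left out (positive without Activin replicate 2), and 0.17 without that library and Activin+HGF replicate 1, which was added after seeing the data. By CPM shares, the difference in share of FOS in the activin step was 0.31 percentage points, that of FOSB 1.01, 0.20 and 1.21 in the 3 comparisons, and that of FOSL1 1.38 in the HGF step. With 1 library left out, the share differences of FOS ranged from -2.59 to -0.90, 7.08 to 10.1 and 5.54 to 8.52 over the 3 comparisons, those of FOSB from -0.24 to 0.26, -0.46 to 0.19 and -0.52 to 0.13, and those of JUND from -22.2 to -20.8, -1.73 to 2.74 and -23.1 to -18.7. The cause was not tested. With pseudocount 0.1, PMEPA1 took the place of KLF2 among the 3 genes nearest to JUN. The precision is limited by 3 libraries per group.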
